A study of Mus musculus with 2 samples.

Results

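Pancreatic acinar cells make the digestive enzymes of the gut, and RNA of their typical genes was measured here as a minor part of RNA from mouse islets of Langerhans. The genes are a list of 33 digestive enzymes, granule proteins and transcription factors of acinar cells, taken by symbol; Reg family genes were left out. The table analysed held 32 of them among 17245 genes, and the chymotrypsin gene Ctrc was not analysed here. Whole islets of 2 mouse genotypes were sequenced, wild type (WT) and a knockout (KO) that the series describes as cGASβKO, a loss of the DNA sensor cGAS in β-cells. There was 1 library per genotype, so no difference below has a replicate check. The sources used here do not give strain, age, sex, the number of mice pooled or the driver of the deletion. Islets of both groups were freed with collagenase, picked by hand under a microscope and cultured before RNA was taken, per the labels' protocols.

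Levels are FPKM, the reads or fragments of a gene per kilobase and per 1000000 of the library, which can be compared between genes because they are per length. Library totals recovered from the values were 14537660 reads for KO and 19097001 for WT. Cgas itself was at 0.521 FPKM in KO and 0.205 FPKM in WT, with an interval of the KO to WT ratio from 1.35 to 4.98. These levels are low, from at least 31 and 16 reads. The loss is described for β-cells and the RNA is from whole islets, so they cannot decide whether the labels are right. The knockout is therefore called the library labelled KO, and every direction is between the libraries as labelled. A fixed set of 12 β-cell markers, insulin genes included, summed to 437410 of 755285 FPKM in the library labelled KO, and in WT to 396864 of 682182 FPKM, so both were islet RNA by that measure. Most of both sums was Ins1 (237131 FPKM in the library labelled KO, 113793 in WT) and Ins2 (182558 and 250577). The sums therefore say little of the other markers, and do not show that the 2 preparations were alike.

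Acinar cells store most of their products as inactive zymogens in granules and release them into the duct after a meal. Trypsin is activated in the gut and then activates the other zymogens, while a small inhibitor, Spink1, binds trypsin that is activated too early. The enzyme genes are driven by PTF1, a complex of the factor PTF1A with an E protein and RBPJL or RBPJ. BHLHA15 (also called MIST1) shapes the secretory machinery, and NR5A2 acts with PTF1 on the same genes. Islets lie scattered within the acinar tissue.

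Nearly all acinar genes were lower in the library labelled KO, most of them by more than 10-fold. Their FPKM summed to 210.2 in that library and 2820 in WT, a ratio of 13.4, which was 0.0278% and 0.413% of all FPKM. Differences are given on the scale log2((KO + 1)/(WT + 1)), whose pseudocount of 1 FPKM understates the change of low genes, and a gene is counted as lower or higher at 2-fold on that scale. At 1 FPKM or more in KO, WT or both there were 27 acinar genes. At least 2-fold lower were 26 of them, against 3.88% of the 12428 genes at that level, and 0 were higher by that much, against 6.98%. The median log2 ratio of the 27 was -3.39, and that of all 12428 genes was 0.077, with quartiles of -0.35 and 0.51. By FPKM alone, 26 of the 27 were lower by any amount, against 45.6% of all genes, and all 26 had an interval of the ratio below 1, against 34.3%. At least 10-fold lower by FPKM were 20 of the 27, against 0.249% of all genes, a total of 31. Acinar genes took 16 of the 20 lowest places and 20 of the 30 lowest. In RNA from whole islets, fewer acinar cells and less RNA per acinar cell cannot be told apart.

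**Figure D1:**
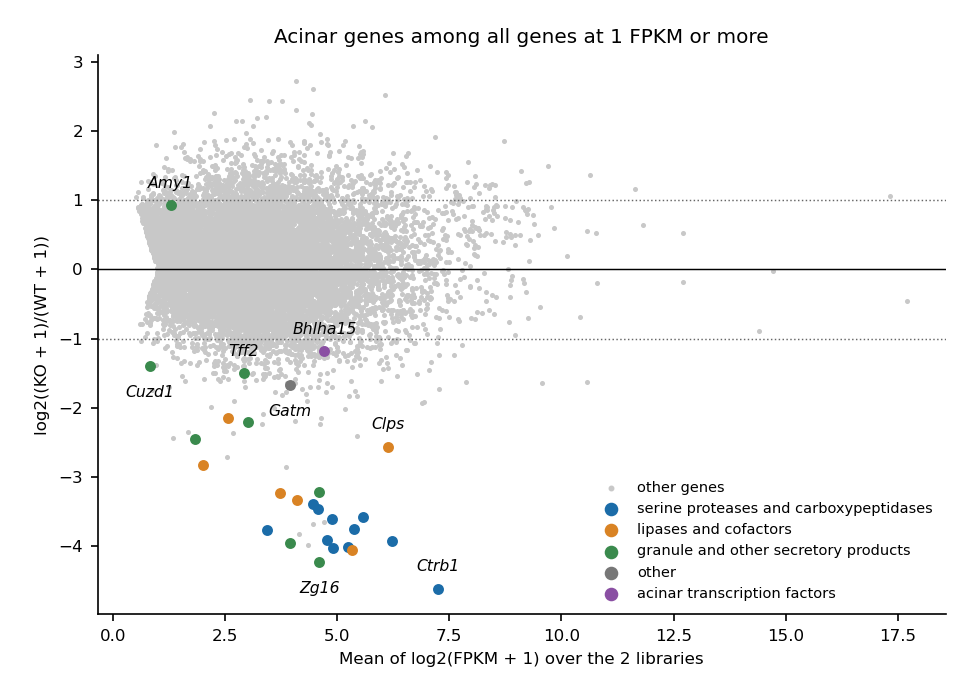
Difference between the libraries, log2((KO + 1)/(WT + 1)), against the mean log2(FPKM + 1) of both for each of the 12428 genes that reach 1 FPKM; grey points are other genes, coloured points the 27 acinar genes by role, and dotted lines mark 2-fold. The 26 lower genes lie between -4.61 (Ctrb1) and -1.18 (Bhlha15), and Amy1 alone lies above 0, at 0.93.

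Which letters the start regions of these genes hold was looked at because the genes were lower together. RefSeq windows (GRCm38.p6) were found for 26 of the 33 genes, and the 250 bases before the start were searched on both strands for CANNTG, the E-box bound by PTF1A and its E protein, and TTTCCC, the TC-box bound by RBPJ or RBPJL. TATAAA was searched on the strand of the gene. The sequences below run 5′ to 3′ up to the base before the start, with matches to these 3 motifs in capitals, and TTTCCC on the other strand reads as GGGAAA. Of the 6 genes that hold both an E-box and a TC-box, Ctrb1, Cpa1, Prss2 and Cela2a are shown because they had the largest folds, Bhlha15 because it had the smallest fold of the lower genes at 1 FPKM or more, and Amy1 because it went the other way.
Ctrb1, chr8:111691011-111691260, minus strand: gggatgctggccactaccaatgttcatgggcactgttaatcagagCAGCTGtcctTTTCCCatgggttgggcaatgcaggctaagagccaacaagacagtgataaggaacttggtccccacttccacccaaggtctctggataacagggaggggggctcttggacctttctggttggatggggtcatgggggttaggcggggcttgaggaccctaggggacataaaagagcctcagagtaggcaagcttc
Cpa1, chr6:30638968-30639217, plus strand: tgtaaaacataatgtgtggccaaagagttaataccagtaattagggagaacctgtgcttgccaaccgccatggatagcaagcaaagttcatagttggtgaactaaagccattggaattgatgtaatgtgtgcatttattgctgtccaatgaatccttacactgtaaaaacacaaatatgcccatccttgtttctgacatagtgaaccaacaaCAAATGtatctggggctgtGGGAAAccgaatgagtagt
Prss2, chr6:41521526-41521775, plus strand: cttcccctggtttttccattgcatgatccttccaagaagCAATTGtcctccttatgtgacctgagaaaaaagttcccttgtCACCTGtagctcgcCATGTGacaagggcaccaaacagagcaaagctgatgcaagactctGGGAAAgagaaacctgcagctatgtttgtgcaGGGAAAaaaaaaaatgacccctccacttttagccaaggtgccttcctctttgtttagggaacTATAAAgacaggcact
Cela2a, chr4:141826006-141826255, minus strand: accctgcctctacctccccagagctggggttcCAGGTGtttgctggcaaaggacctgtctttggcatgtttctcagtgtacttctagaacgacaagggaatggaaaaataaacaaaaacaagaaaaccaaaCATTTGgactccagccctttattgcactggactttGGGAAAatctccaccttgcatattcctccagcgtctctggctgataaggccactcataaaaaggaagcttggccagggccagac
Bhlha15, chr5:144190036-144190285, plus strand: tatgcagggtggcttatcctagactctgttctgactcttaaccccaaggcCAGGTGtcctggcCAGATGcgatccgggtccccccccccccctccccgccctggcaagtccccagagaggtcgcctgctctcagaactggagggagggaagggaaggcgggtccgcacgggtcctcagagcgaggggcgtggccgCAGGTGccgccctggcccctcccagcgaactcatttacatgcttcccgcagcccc
Amy1, chr3:113577751-113578000, minus strand: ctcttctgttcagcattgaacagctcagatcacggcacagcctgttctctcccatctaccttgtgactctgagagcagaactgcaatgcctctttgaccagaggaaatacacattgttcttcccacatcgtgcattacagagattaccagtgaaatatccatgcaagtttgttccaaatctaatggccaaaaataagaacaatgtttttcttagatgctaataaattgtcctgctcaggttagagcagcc

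In the Ctrb1 window the E-box starts at position -205 and the TC-box at -195, counted back from the start. In Cpa1 they start at -38 and -19. Those nearest each other start at -155 and -110 in Prss2 and at -119 and -84 in Cela2a, which is more than 25 bases apart. Bhlha15 has 3 E-boxes and no TC-box, and the Amy1 window shown, the more upstream of the 2 that RefSeq gives for it, holds none of the 3 motifs. The other Amy1 window has TATAAA at -63. In the counts that follow, each acinar gene has 1 window, whereas the comparison holds all windows of all genes, expressed here or not. An E-box was found in 20 of the 26 windows (76.9%), against 66.2% of all 32841 windows, and a TC-box in 6 (23.1%) against 22.0%. Both occurred in 6 windows (23.1%), against 14.2% of all, and the first bases lay at most 25 apart in 4 (15.4%), against 4.01% of all. Those with both, Cel, Cela1, Cela2a, Prss2, Cpa1 and Ctrb1, were 12.0 to 25.3-fold lower, with a median of 17.0. The other 16 genes with a window and at least 1 FPKM had a median of 13.2-fold, from 20.6-fold lower (Cuzd1) to Amy1, which was higher. Among these 16, neither box was found for Sycn (20.3-fold lower), Pnlip (18.3), Rnase1 (10.5), Pla2g1b (6.30) and Amy1. Large folds thus occurred without either box, and a link between boxes and folds was not tested. AAGGTCA, the letters read by NR5A2, occurred on either strand in 3 windows (11.5%), against 4.08% of all. TATAAA occurred in 5 (19.2%), against 7.59%, and it started 20 to 40 bases before the start in 4 (15.4%), against 1.99%. In the 12744 windows of genes at 1 FPKM or more, an E-box was in 57.7%, a TC-box in 23.0% and both in 13.2%. Both with first bases at most 25 apart were in 3.34% of these windows. AAGGTCA was in 2.81%, TATAAA in 3.88%, and TATAAA 20 to 40 bases before the start in 1.22%. A match is a description of the sequence and not evidence of binding.

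The proteases were the largest group: all 11 measured were at least 2-fold lower, with a median log2 ratio of -3.76 and a summed level of 113.7 against 2029 FPKM. Ctrb1, a chymotrypsinogen, was the most abundant acinar transcript in both libraries, with 29.8 FPKM in the library labelled KO against 753 in WT. It was 25.3-fold lower (exact 95% interval 22.8 to 28.0, from at least 384 and 12748 reads), the lowest log2 ratio of all 12428 genes. Ctrl, a second chymotrypsin-like protease, was at 7.44 and 102 FPKM, 13.7-fold lower (11.1 to 17.0). The intervals of these chymotrypsins do not overlap, so the size of the reduction differed between them by more than counting error.

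The listed trypsinogen genes, Prss2, Try4 and Try5, lie on chromosome 6 within the T-cell receptor beta locus (Tcrb). Try4 runs from 41302272 to 41305533 and Try5 from 41311232 to 41314710, 5699 bases apart, and Prss2 from 41521776 to 41525079. Prss2 had 8.49 FPKM in the library labelled KO against 152 in WT, 17.9-fold lower (13.6 to 24.2). For Try4 the levels were 6.11 and 106 FPKM (17.3-fold, 13.7 to 22.3), and for Try5 5.84 and 70.9 FPKM (12.1-fold, 9.50 to 15.8). The 3 intervals overlap. Of the 50-base windows of their transcripts, 65.6% for Try4 and 53.9% for Try5 occur in another annotated gene, but 7.83% for Prss2, so the division of reads between Try4 and Try5 is uncertain. The trypsin inhibitor Spink1 was at 2.77 and 16.4 FPKM, 5.91-fold lower (3.55 to 10.5), an interval entirely below those of Prss2 and Try4 that overlaps that of Try5. Its level was 13.6% of the sum of Prss2, Try4 and Try5 in the library labelled KO and 4.97% in WT.

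Elastases and carboxypeptidases lay in the same range as the trypsinogens. Cela2a had 18.3 FPKM in the library labelled KO against 292 in WT (16.0-fold lower, 14.1 to 18.3), Cela1 had 10.3 and 151 FPKM (14.7-fold, 12.6 to 17.3) and Cela3b had 12.9 and 164 FPKM (12.7-fold, 10.9 to 15.0). Cela2a overlaps Casp9, and 25.6% of the windows of its longest coding transcript are shared with Ctrc, which RefSeq places 12234 bases away on chromosome 4 as a transcribed pseudogene. Cela3b shares 33.2% of its windows with Cela3a. Cpa1, which removes aliphatic and aromatic residues from the carboxyl end of peptides, was at 6.48 and 121 FPKM, 18.6-fold lower (15.8 to 22.1). Cpb1, which removes basic residues, was at 6.17 and 78.0 FPKM, 12.6-fold lower (10.6 to 15.1), so the Cpa1 interval lies above that of Cpb1. Tissue kallikrein, Klk1, was at 1.95 and 38.9 FPKM, 20.0-fold lower (13.5 to 30.8), with 28.4% of its windows shared with other kallikrein genes.

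**Figure D2:**
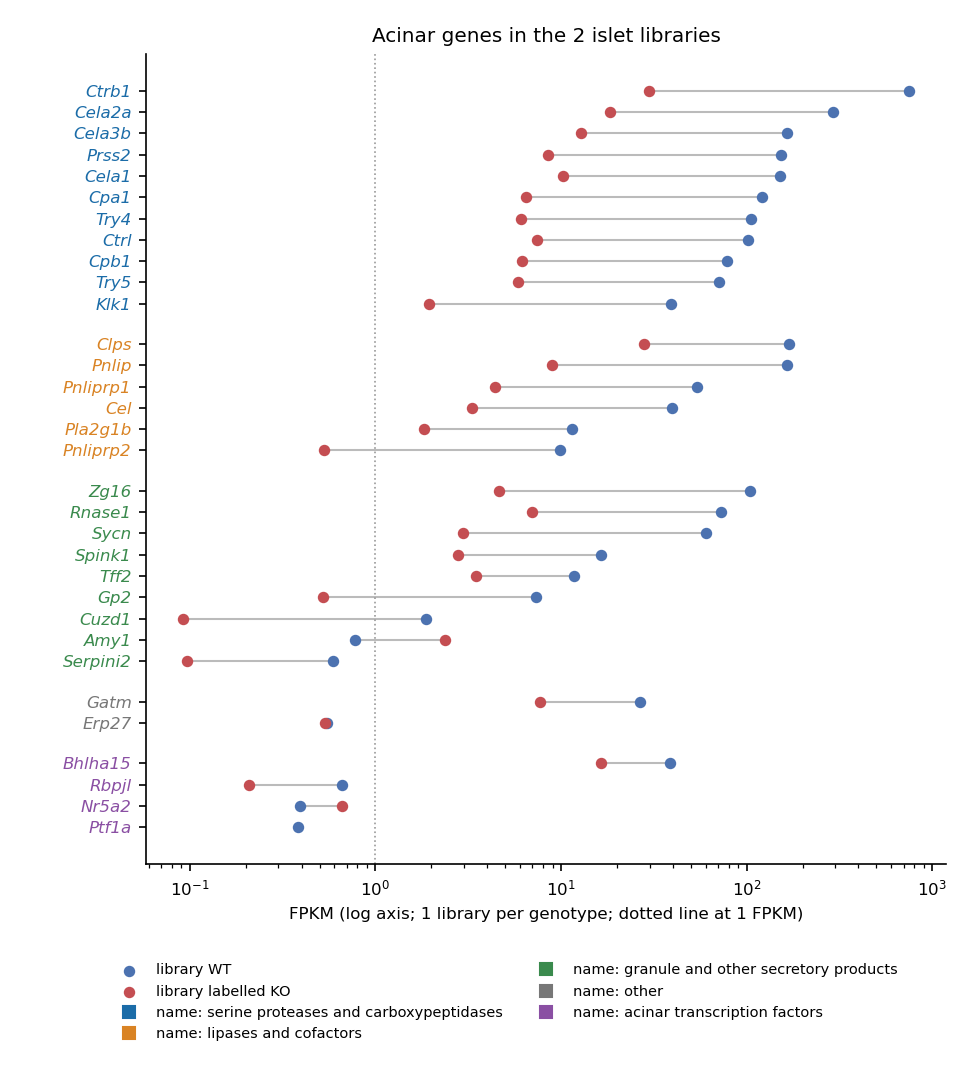
FPKM of each of the 32 acinar genes (log axis) in WT (blue) and in the library labelled KO (red), grouped by role, with 1 library per genotype and a dotted line at 1 FPKM; Ptf1a, listed at 0 in the library labelled KO, has only its WT point. Red lies to the left of blue for every gene except Amy1 and Nr5a2, and the 2 points of Erp27 nearly coincide.

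The lipases were lower as well, but their cofactor colipase kept a higher share. All 6 genes of this group were at least 2-fold lower, with a median log2 ratio of -3.03. Pnlip, the main triglyceride lipase, and its relatives Pnliprp1 and Pnliprp2 lie in a row on chromosome 19, from 58670365 to 58777534. Pnlip had 8.95 FPKM in the library labelled KO against 164 in WT, 18.3-fold lower (15.9 to 21.2). Pnliprp1 was at 4.42 and 53.8 FPKM, 12.2-fold lower (9.99 to 15.0), an interval below that of its neighbour Pnlip. Pnliprp2, from at least 6 and 147 reads, was at 0.526 and 9.82 FPKM, 18.7-fold lower (8.37 to 51.6). Bile-salt-activated lipase, Cel, was at 3.31 and 39.6 FPKM, 12.0-fold lower (9.77 to 14.8).

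Colipase, Clps, which anchors pancreatic lipase to fat droplets covered by bile salts, had 28.0 FPKM in the library labelled KO against 170 in WT. It was 6.07-fold lower (4.98 to 7.46), and its interval overlaps none of those of Pnlip, Pnliprp1, Pnliprp2 and Cel. In WT its level was 1.04 times that of Pnlip, and in the library labelled KO 3.13 times. The phospholipase Pla2g1b, at 1.82 and 11.5 FPKM, was 6.30-fold lower, with a wide interval (3.36 to 13.1) from at least 11 and 91 reads.

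Of the 8 granule and other secretory products at 1 FPKM or more, 7 were at least 2-fold lower, with a median log2 ratio of -2.33. Zg16, a lectin on the inner face of the granule membrane, had 4.64 FPKM in the library labelled KO against 104 in WT, 22.5-fold lower (16.8 to 30.9). Sycn, or syncollin, was at 2.96 and 60.2 FPKM (20.3-fold, 13.5 to 31.9), and the membrane glycoprotein Gp2 at 0.520 and 7.31 FPKM (14.1-fold, 8.38 to 25.5). The ribonuclease Rnase1 was at 6.95 and 72.7 FPKM (10.5-fold, 7.82 to 14.3). Cuzd1, a granule membrane protein, was at 0.091 and 1.88 FPKM, a 20.6-fold difference that rests on at least 1 and 27 reads (3.39 to 842). The trefoil peptide Tff2, also a product of gastric mucous cells, was at 3.49 and 11.7 FPKM, 3.36-fold lower (2.23 to 5.22). With a pseudocount of 5 FPKM neither Tff2 nor Cuzd1 was 2-fold lower, at log2 ratios of -0.98 and -0.43. Serpini2, a serine protease inhibitor of the serpin family, stayed under 1 FPKM, at 0.097 and 0.588, and its interval (0.816 to 270.2) includes 1.

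Amy1 was the exception among the secreted products, higher in the library labelled KO at 2.38 FPKM against 0.776 FPKM in WT. The KO to WT ratio was 3.07 (1.92 to 5.01, from at least 63 and 27 reads), and its log2 difference of 0.93 was short of 2-fold on the scale with the pseudocount. With a pseudocount of 0.1 FPKM it was 1.50, past that limit. In mice Amy1 is the amylase of salivary gland and liver, while the pancreatic enzyme comes from the Amy2 genes, which are not in the list. Pancreatic amylase Amy2a1 was at 6.41 and 91.7 FPKM, 14.3-fold lower (12.2 to 16.9), so the Amy2a1 level was 2.69 times that of Amy1 in the library labelled KO and 118 times in WT. Only 2.69% of the 50-base windows of Amy1 occur in another gene, mainly Amy2 copies. As a marker of pancreatic acinar cells, Amy1 thus goes against the label of the list in these data.

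Of the transcription factors, Bhlha15 was lower by less than the proteases and lipases, and the others were too low to call. Bhlha15 had 16.5 FPKM in the library labelled KO against 38.7 in WT, 2.35-fold lower (2.17 to 2.54, from at least 837 and 2581 reads). Its interval lies below that of every protease and lipase. Bhlha15 was 55.3% of the Ctrb1 level in the library labelled KO and 5.14% in WT. The other 3 factors stayed under 1 FPKM in both libraries. Ptf1a was listed at 0 in the library labelled KO and at 0.382 FPKM in WT, from at least 11 reads. Rbpjl, the acinar-specific subunit of PTF1, was at 0.207 and 0.658 FPKM, 3.17-fold lower (1.27 to 9.45). Nr5a2 was the other way round, at 0.665 and 0.392 FPKM, a KO to WT ratio of 1.69 (1.09 to 2.66). Of the 5 acinar genes under 1 FPKM in both libraries, 2 (Ptf1a and Rbpjl) had a KO to WT interval entirely below 1, against 3.48% of all genes at that level.

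A pair of listed genes encode proteins that are not secreted. Gatm, the mitochondrial enzyme of the first step of creatine synthesis, had 7.70 FPKM in the library labelled KO against 26.6 in WT, 3.45-fold lower (3.02 to 3.96). Erp27, a redox-inactive protein of the endoplasmic reticulum, was at 0.533 and 0.550 FPKM, with an interval from 0.491 to 2.23 that includes 1, so a difference was not detectable at this depth.

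**Figure D3:**
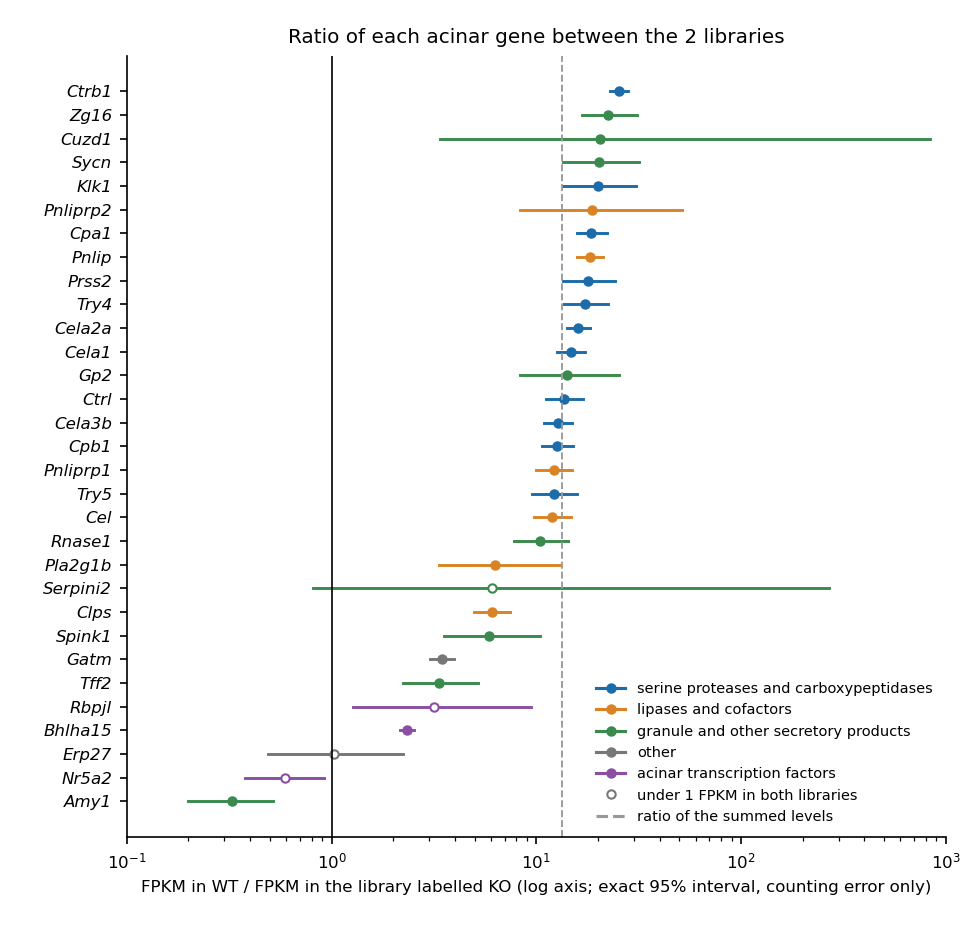
FPKM in WT divided by FPKM in the library labelled KO for 31 acinar genes (log axis), ordered by size and coloured by role, with exact 95% intervals that cover counting error only; open points are genes under 1 FPKM in both libraries, and Ptf1a is left out because it is listed at 0. The dashed line is the ratio of the summed levels, 13.4; of the filled points, Amy1, Bhlha15, Tff2, Gatm, Spink1, Clps and Pla2g1b lie to its left with intervals that do not reach it.

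The reduction was not the same for all acinar genes. Of the 27 at 1 FPKM or more, 9 had an interval entirely above the ratio of the summed levels (13.4), 11 had one that held it and 7 had one entirely below it. The 9 above were Ctrb1, Zg16, Sycn, Klk1, Cpa1, Pnlip, Prss2, Try4 and Cela2a. The 7 below were Amy1, Bhlha15, Tff2, Gatm, Spink1, Clps and Pla2g1b. In the order of folds there was a gap between Rnase1 at 10.5-fold and Pla2g1b at 6.30-fold, although the intervals of these neighbours overlap. Among the 16 genes at 50 FPKM or more in WT, the fold ranged from 6.07 (Clps) to 25.3 (Ctrb1), with a median of 15.4. Across the 27 genes, levels in the 2 libraries were correlated (Pearson r = 0.82 on log2(FPKM + 1), Spearman rho = 0.83), and genes with a higher WT level had a lower log2 ratio (rho = -0.77). These are descriptions across genes, which share the libraries and are not replicates; the WT level enters both sides of the last one.

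The shares of the listed genes in their summed FPKM therefore differed between the libraries. Which cells of the islet preparation the transcripts came from was not tested. Ctrb1 made up 26.7% of the summed acinar FPKM in WT and 14.2% in the library labelled KO. Clps made up 6.03% and 13.3%, moving from rank 3 to rank 2, and Bhlha15 1.37% and 7.84%, moving from rank 19 to rank 4. The 5 most abundant genes in WT, Ctrb1, Cela2a, Clps, Cela3b and Pnlip, held 54.7% of the WT sum and 46.6% of the sum in the library labelled KO.

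**Figure D4:**
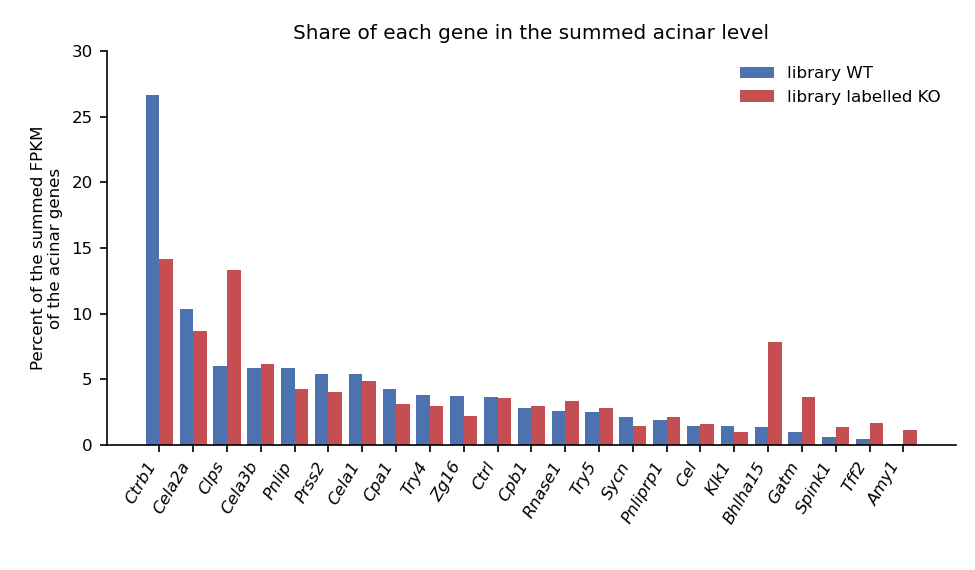
Share of each gene in the summed FPKM of the acinar genes (percent), in WT (blue) and in the library labelled KO (red), for the 23 genes that reach 1% in either library, ordered by WT level. Ctrb1 takes a smaller share in the library labelled KO (14.2% against 26.7%), and Clps, Bhlha15 and Gatm take larger shares.

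Acinar secretory genes outside the list gave a mixed picture. Of 32 further genes, 24 were in the table and 12 reached 1 FPKM. Of these, 3 were at least 2-fold lower and 0 higher, against 3.88% and 6.98% of all genes at that level. Their median log2 ratio was -0.69. That median was -0.22 with a pseudocount of 5 FPKM, -0.35 without a floor and -1.17 with the trend on GC content and length removed. By any amount 8 of the 12 were lower, against 45.6% of all genes at that level. The 3 lower by 2-fold included the trypsinogen-like gene 2210010C04Rik (4.11 against 79.7 FPKM, 19.4-fold, 16.3 to 23.3) and Amy2a1. Try10 (0.155 and 1.00 FPKM, 6.47-fold, 1.54 to 57.7) and Prss3 (0.424 and 1.29 FPKM, 3.05-fold, 1.11 to 10.4) were lower by FPKM. With the pseudocount both stayed within 2-fold. The stress protein Nupr1, which islet cells also make, had a log2 ratio of -0.87. The granule SNARE Vamp8 and the chaperone Fkbp11, which many secretory cells express, were at 0.46 and 0.51. Of the 12 genes under 1 FPKM, 10 were lower in the library labelled KO by any amount and the rest higher. In that library, the one with fewer reads, 6 of the 12 were listed at 0. The share over all genes at that level was not taken, so the count is not read as a result. The lower ones included Amy2b at 0.097 and 0.778 FPKM and Amy2a4, listed at 0 and 0.366 FPKM.

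Regulators and receptors that acinar cells share with other cells stayed within 2-fold where they reached 1 FPKM. Most genes did so: of all 12428 at that level, 3.88% were at least 2-fold lower and 6.98% higher. Counts of 0 in lists this short are therefore near the share over all genes. Of 12 partners of PTF1 and other exocrine factors, 10 reached 1 FPKM and 0 passed 2-fold in either direction, with a median of -0.14. Those with the widest log2 ratios were Hes1 (0.67), a Notch target, and the E proteins Tcf12 (-0.51), Tcf4 (0.51) and Tcf3 (0.49). Among known targets of BHLHA15, 3 of 5 reached 1 FPKM and 0 passed 2-fold: the granule GTPase Rab3d was at -0.92, the coat subunit Copz2 at 0.66 and Rab26 at 0.19. Of 5 receptors for secretagogues, 3 reached 1 FPKM and 0 passed 2-fold, the muscarinic receptors Chrm3 at -0.63 and Chrm1 at 0.38 and the VIP receptor Vipr1 at -0.12. The cholecystokinin receptor Cckar, which drives enzyme release in rodent acini, was at 0.023 and 0.268 FPKM, from at least 1 and 15 reads.

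Markers of other cell types also differed between the libraries, and their part in the acinar difference was not tested. Sums here are over all listed markers, and counts over those at 1 FPKM or more. Duct markers, from the other exocrine epithelium, summed to 460.6 FPKM in the library labelled KO against 463.9 in WT, with 0 of 10 past 2-fold and a median of 0.22. Single duct markers went both ways, so the near-equal sum does not show unchanged duct RNA. Krt19 was at 3.01 and 1.41 FPKM and Sox9 at 0.946 and 0.480, whereas Cldn4 was at 26.3 and 52.5. Endothelial markers were at 841.8 and 367.3 FPKM, with 6 of 12 at least 2-fold higher, and macrophage markers at 388.5 and 167.7 FPKM, with 7 of 12. Mesenchymal markers were at 219.3 and 113.8 FPKM, with 3 of 11 at least 2-fold higher. With the GC and length trend removed, the macrophage median moved from 1.07 to 0.45. The endothelial median (1.00) was then 0.95 and the mesenchymal median (0.85) stayed at 0.85. Of the 12 β-cell markers, 5 were at least 2-fold lower and 1 higher, with a median of -0.77. Beside these counts, 3.88% of all 12428 genes at 1 FPKM or more were at least 2-fold lower and 6.98% higher. No marker in these lists was at 0 in both libraries.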

How the data were processed

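RNA-seq of islets gave 1 library per genotype. The deposited table holds FPKM values, made by the authors; the submitters' processing notes name mm10 (GRCm38), and what aligned and counted the reads, with which annotation and strand, is not given in the sources used here. Values were used as deposited. Whole reads were recovered from the FPKM values by scanning library totals and gene lengths of 60 to 30000 bases, for 17178 of 17245 genes (99.6%) within 1e-05 of a read plus 1e-09 times the reads. The smallest such reads were used; the true number is these or a whole multiple, so intervals can be too wide. Exact Clopper-Pearson 95% intervals of the ratio cover counting error only, since PCR copies are not independent molecules. No test was run with 1 library per group, and FPKM are not counts. Log2 ratios used a pseudocount of 1 FPKM, a floor of 1 FPKM in either library and a 2-fold limit, tested on simulated data.

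The acinar genes, the other lists and the sequences shown were chosen with earlier results of these data known. All members were named, plus up to 4 genes of the widest log2 ratio from each list of further secretory genes, factors, BHLHA15 targets and receptors. No gene of the marker lists of other cell types was named by this rule. Amy2b, Amy2a4, Cckar, Vamp8, Fkbp11, Try10, Prss3, Krt19, Sox9, Cldn4, Ins1 and Ins2 were named after their values were seen. A gene of the further secretory list is not reported here by name. Shared 50-base windows came from the longest coding GENCODE M21 transcript, and read length is not given. Overlaps, positions and start regions came from RefSeq on GRCm38.p6. Motif searches were added after seeing the data. Alternatives were other pseudocounts, floors and scalings, removal of a GC and length trend, and leaving out genes with close copies or overlaps. Python 3.11.15, scipy 1.17.1 and statsmodels 0.14.6 were used.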

Additional observations from a re-analysis of the deposited data

How the results depend on the processing

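Between 24 and 26 acinar genes were at least 2-fold lower under other pseudocounts, floors, scalings and removal of the GC and length trend, as were 20 of 20 and 19 of 20 kept genes without close copies or overlapping genes. Amy1 counted as 1 gene at least 2-fold higher with a pseudocount of 0.1 and with the trend removed. A pseudocount of 5 moved the median log2 ratio of all acinar genes to -2.70, of proteases to -3.32, of lipases to -2.41, of granule and other secretory products to -1.31 and of transcription factors (Bhlha15 alone) to -1.02. With a pseudocount of 0.1 the lipases were at -3.56 and the granule group at -3.37, and a floor of 5 FPKM put the granule group at -2.83. Trend removal gave -4.38 for proteases, -3.44 for lipases and -1.47 for Bhlha15. Bhlha15 was at -1.34 with equal sums and -1.32 with equal sums without the 20 highest genes, and without a floor the 4 transcription factors had a median of -0.46. The ratio of summed levels was 14.9 under both equal-sum scalings, 13.9 by the median ratio, 12.9 without close copies and 11.1 without overlapping genes.

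Over all genes, 482 were lower and 868 higher; the lower count was 181 with a pseudocount of 5 and 793 with equal sums, and the higher count 1556 and 305 with pseudocounts of 0.1 and 5, 555 without the 20 highest genes and 394 with the trend removed. The median of all genes moved from 0.077 to -0.049 with equal sums. Higher genes made up 64.3% of calls, 46.5% with equal sums, 43.7% without the 20 highest genes and 52.7% with the trend removed. Of the target lists, that of BHLHA15 had a median of 0.19, and -0.40 with the trend removed. No paired analysis was possible because there was 1 library per genotype. Without replicates, no spread between mice can be given.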
